A study of Mus musculus with 12 samples.

Results

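The miR-181 family comprises 4 mature guide strands in mouse, mmu-miR-181a-5p, mmu-miR-181b-5p, mmu-miR-181c-5p and mmu-miR-181d-5p, given below without the species prefix, and these were examined in extracellular vesicles of bone marrow mesenchymal stem cells. Members were taken by name, and all 4 were among the 1978 annotated miRNA rows of the count table, of which 501 had a count in some library. Extracellular vesicles are membrane particles that cells release and that carry small RNA. The cells came from C57BL/6 mice, and all samples carry the same treatment label, an antigen intervention. The design text describes stimulation of cultured cells at 2 µg/ml for 48 h with ESPs, HCF or pLL, 3 antigen preparations from hydatid material. The 12 libraries fall into the groups aFM, NY, PLL and DZ with replicates A, B and C each. The labels do not say what aFM, NY and DZ stand for, and they call no group unstimulated. DZ served here only as the common baseline of 3 comparisons. No label says whether replicates were cultured or collected separately, so a p-value reflects library-to-library spread, part of which may be technical.

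A miRNA guides a silencing complex to messenger RNAs through its seed, the bases 2 to 8 counted from the 5′ end. Each hairpin precursor yields 2 arms. The arm that is usually retained is called the guide, here -5p, and the other the passenger, here -3p. The family is best known from lymphocytes, where miR-181a tunes T cell receptor signalling, and from endothelium, where miR-181b restrains NF-κB signalling. miR-181c acts on a mitochondrial transcript in rat heart cells, and miR-181d lowers the DNA repair enzyme MGMT in human glioma cells.

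The mature sequences are shown because they bear on how far the counts of single members can be told apart. The capitals mark the seed.
miR-181a-5p: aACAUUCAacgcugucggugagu
miR-181b-5p: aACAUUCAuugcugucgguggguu
miR-181c-5p: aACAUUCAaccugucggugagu
miR-181d-5p: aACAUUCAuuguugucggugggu
All 4 sequences were found in RefSeq (build GRCm38.p6) and shared 1 seed, which no other of its 1679 mature mouse miRNA names carried. Outside the seed the members differed at few positions, counted from 1 at the 5′ end. miR-181b-5p differed from miR-181a-5p by A9U, C10U and A21G and was 24 bases long against 23. miR-181d-5p differed from miR-181b-5p by C12U and lacked its last base. miR-181c-5p was miR-181a-5p with the G at position 11 removed. How the authors assigned reads with a mismatch or a trimmed end is not given in the sources used here, so counts of miR-181b-5p and miR-181d-5p, and of miR-181a-5p and miR-181c-5p, are uncertain against each other.

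In GRCm38 the family has 6 hairpins in pairs on 3 chromosomes. The submitters' processing notes name mm39, and the count table gives no position for these rows. Mir181a-1 (guide at chr1:137966468-137966490, plus strand) and Mir181b-1 (guide at chr1:137966650-137966673) lie with their guide starts 182 bases apart in an intron of the noncoding gene Gm4258 on the same strand, and the Mir181b-1 guide also overlaps an exon of the lincRNA A430106G13Rik. Mir181a-2 (guide at chr2:38852741-38852763, plus strand) and Mir181b-2 (guide at chr2:38853845-38853868) lie with their guide starts 1104 bases apart in an intron of Nr6a1 on the opposite strand. Mir181c (guide at chr8:84178924-84178945, minus strand) and Mir181d (guide at chr8:84178759-84178781) lie with their guide starts 165 bases apart in an intron of Nanos3 on the same strand. miR-181a-5p has the same sequence from chromosomes 1 and 2, as has miR-181b-5p, so their counts cannot be assigned to one locus.

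Libraries held 68647 to 214303 counts, of which annotated miRNAs took 10.3% to 60.7%, or 17607 to 60436 counts. Levels are given as CPM, the count of a miRNA scaled to the annotated counts of its library, with library sizes scaled by the TMM method. One count stood for 22.6 to 61.0 CPM. A count of 0 allows up to 3 counts, or 67.9 to 183 CPM, for counting error only. PLL replicate A stood apart, with a TMM factor of 0.731 against 0.896 to 1.13 in the other libraries and the highest annotated share. A list of 9 miRNAs known from mesenchymal cells spanned a wide range of mean CPM. Its highest were miR-21a-5p (96084) and miR-143-3p (68183), at ranks 1 and 3 of the detected miRNAs, whereas miR-145a-5p (219) was at rank 137. Some miRNAs known from other cells ranked high too, such as miR-486a-5p with 54548 and miR-9-5p with 37227 CPM. All 9 of the mesenchymal list were counted in every group. They summed to 161212 to 175219 CPM in aFM, 221388 to 241214 in NY, 152705 to 191913 in PLL and 199068 to 222196 in DZ.

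The family was a minor part of the vesicle miRNAs and was mostly miR-181a-5p. The 4 guide strands had 286 of 357613 annotated counts over the 12 libraries, or 0.0800%. miR-181a-5p had 214 of the 286, a share of 74.8% (95% exact binomial interval 69.4 to 79.7). miR-181b-5p had 58 counts or 20.3% (15.8 to 25.4), miR-181d-5p 13 counts or 4.55% (2.44 to 7.65) and miR-181c-5p 1 count or 0.350% (0.00885 to 1.93). In order of mean CPM among the 501 detected miRNAs, miR-181a-5p was at rank 88 with 622 CPM, between miR-99b-3p with 633 and let-7c-2-3p with 605 CPM. miR-181b-5p was at rank 148 with 168 CPM, between miR-340-5p and miR-296-3p. miR-181d-5p was at rank 254 with 39.2 CPM, between miR-760-3p and miR-500-3p. miR-181c-5p was at rank 446, next to miR-7116-5p, whose single count lay in the same library, and miR-5113.

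**Figure D1:**
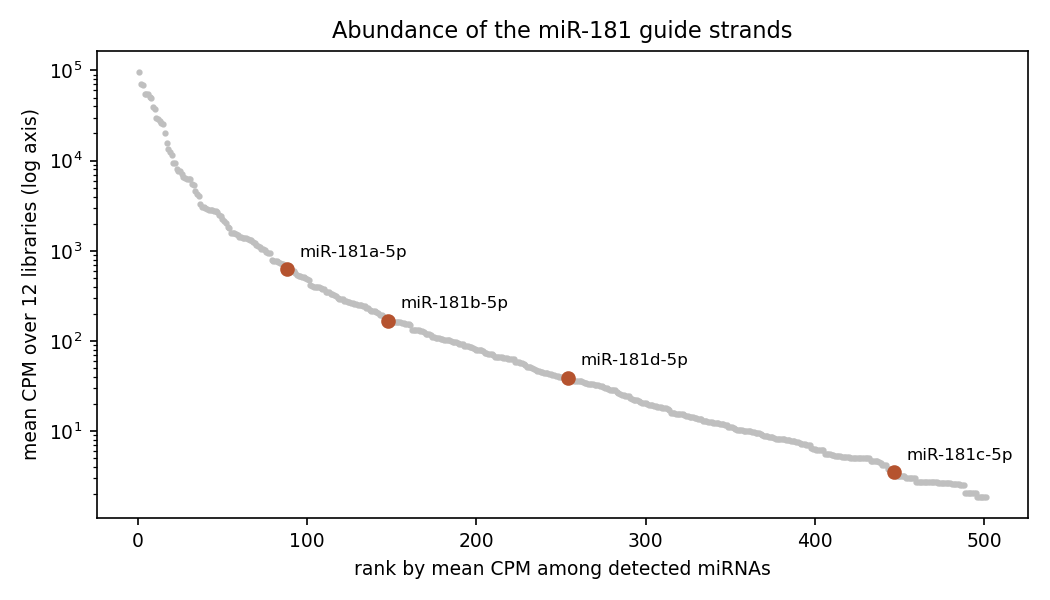
Mean CPM over 12 libraries (log axis) against rank for each of the 501 detected miRNAs (grey), with the miR-181 guide strands in red. miR-181a-5p stands at rank 88, and the other members lie at ranks 148, 254 and 446.

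miR-181a-5p was counted in every library. It had 1181, 478 and 665 CPM in aFM replicates A, B and C, from 28, 13 and 22 counts. NY replicates A, B and C had 331, 434 and 798 CPM, from 10, 14 and 24 counts. PLL replicates A, B and C had 385, 753 and 604 CPM, from 17, 30 and 19 counts. DZ replicates A, B and C had 427, 797 and 606 CPM, from 7, 14 and 16 counts. aFM replicate A was the highest library and NY replicate A the lowest, and every group overlapped every other. The means were 775 ± 364 CPM in aFM, 521 ± 245 in NY, 581 ± 185 in PLL and 610 ± 185 in DZ (SD, n = 3 each). In the order aFM, DZ, PLL, NY, no neighbours differed by more than their SD. The coefficient of variation between libraries was 47.0% in aFM, 47.0% in NY, 31.9% in PLL and 30.3% in DZ, where counting alone gives 21.8%, 25.0%, 21.3% and 28.5% at the mean counts of these groups. In such bulk samples, fewer vesicles or cells of a type and less RNA in each cannot be told apart.

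miR-181b-5p was counted in 10 of 12 libraries. It had 464, 0 and 302 CPM in aFM replicates A, B and C, from 11, 0 and 10 counts. NY replicates A, B and C had 199, 279 and 166 CPM, from 6, 9 and 5 counts. PLL replicates A, B and C had 67.9, 25.1 and 191 CPM, from 3, 1 and 6 counts, and DZ replicates had 0, 171 and 152 CPM, from 0, 3 and 4 counts. NY was the most even group, whereas aFM held both the highest library and one at 0, and all groups overlapped. The means were 255 ± 235 CPM in aFM, 215 ± 58.2 in NY, 94.6 ± 86.1 in PLL and 107 ± 93.5 in DZ (SD, n = 3 each). aFM replicate B also had no count of miR-181c-5p or miR-181d-5p, so miR-181a-5p made up all 13 guide counts of that library, while aFM replicates A and C had 41 and 32 guide counts.

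miR-181d-5p had 1, 0 and 0 counts in aFM replicates A, B and C, 0, 2 and 4 in NY, 1, 1 and 2 in PLL and 2, 0 and 0 in DZ. NY replicate C was the highest library at 133 CPM and the only one above the 3 counts that a 0 allows. miR-181c-5p had its 1 count in aFM replicate A. Pooled over a group, 0 counts of miR-181c-5p allow up to 32.4 CPM in NY, 26.0 in PLL and 49.7 in DZ. Both come from the chromosome 8 pair, and neither level could be compared between groups at this depth.

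**Figure D2:**
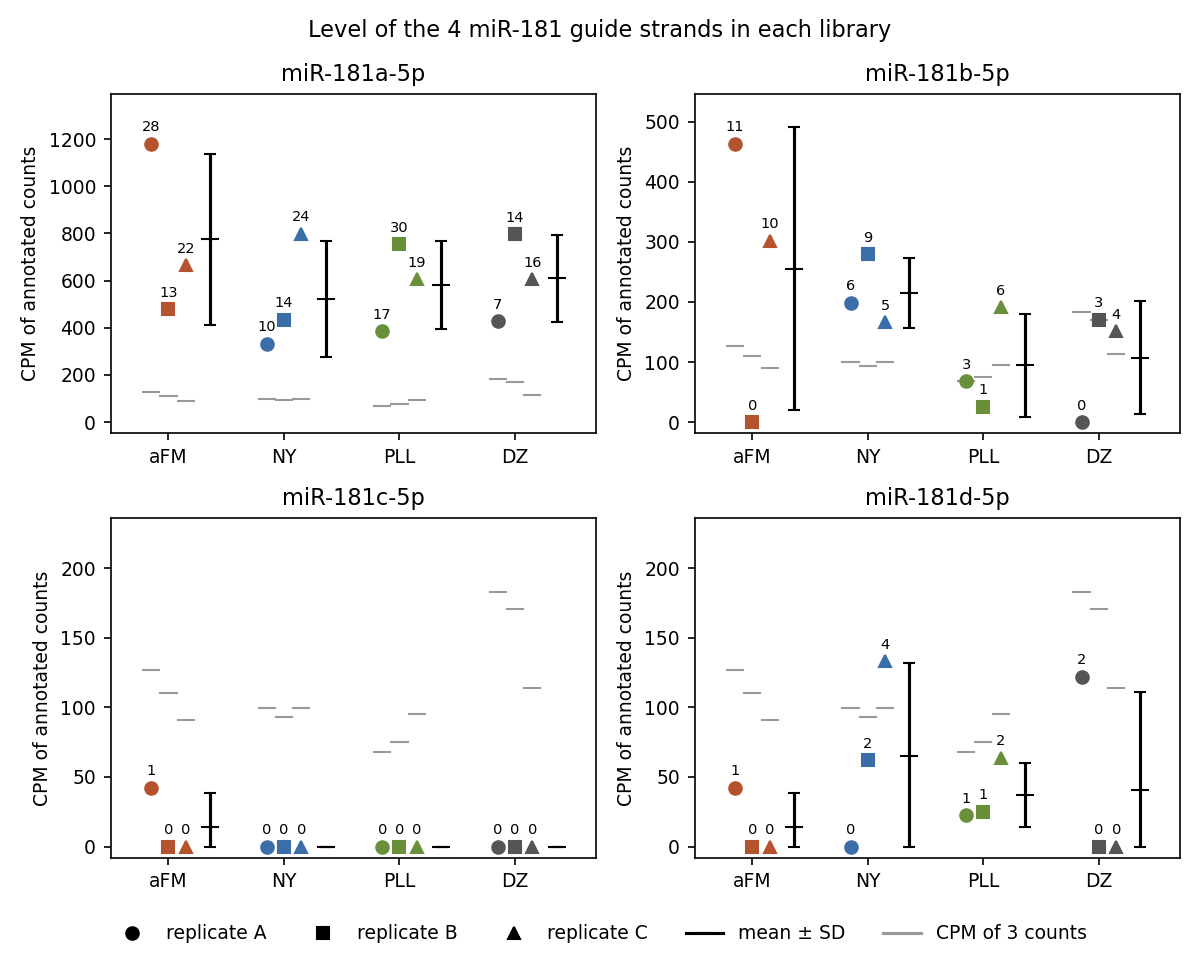
CPM of each guide strand in every library, in groups aFM, NY, PLL and DZ, with the count printed above each point, the mean ± SD beside each group (n = 3, bars cut at 0) and grey ticks at the CPM of 3 counts. miR-181a-5p lies above the ticks in every library, whereas miR-181c-5p and, in all but NY replicate C, miR-181d-5p lie below them.

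Summed over the 4 members, the guide strands stood at 1058 ± 630 CPM in aFM, 801 ± 284 in NY, 713 ± 207 in PLL and 758 ± 209 in DZ (SD, n = 3 each). The libraries ran from 478 to 1729 CPM in aFM, 530 to 1097 in NY, 476 to 859 in PLL and 549 to 967 in DZ, so the summed level overlapped between all groups. Pooled over libraries, the ratio of PLL to aFM was 0.677 (95% interval 0.493 to 0.929, counting error only). The counting intervals of the other pairs of groups spanned equal levels. Within the sum, miR-181a-5p took 73.3% of 86 counts in aFM (95% exact binomial interval 62.6 to 82.2), 64.9% of 74 in NY (52.9 to 75.6), 82.5% of 80 in PLL (72.4 to 90.1) and 80.4% of 46 in DZ (66.1 to 90.6). miR-181b-5p and miR-181d-5p added up, since they differ at few bases, took 25.6% in aFM (16.8 to 36.1), 35.1% in NY (24.4 to 47.1), 17.5% in PLL (9.91 to 27.6) and 19.6% in DZ (9.36 to 33.9). These intervals overlap between all groups and cover counting error only, and their overlap does not show equal shares.

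The comparisons asked whether vesicle levels of the family differed between the groups. Only miR-181a-5p passed the filter on low counts and was tested, so it was 1 of 4 members and 1 of 132 miRNAs tested. It was not called in any of 6 pairwise comparisons (edgeR quasi-likelihood test, Benjamini-Hochberg adjustment, threshold 0.05). Of the miRNAs tested, 18.9% were called in aFM against DZ, 0.758% in NY against DZ, 3.79% in PLL against DZ, 3.79% in NY against aFM, 9.09% in PLL against aFM and 6.82% in PLL against NY. The comparisons share libraries and are not independent. In the joint test of any difference among the groups, where 12.1% of miRNAs were called, miR-181a-5p had an adjusted p = 0.758 and an unadjusted p = 0.69, rank 120 of 132.

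For miR-181a-5p in aFM against DZ, the log2 fold change was 0.33 ± 0.49 (SE; adjusted p = 0.814), with a 95% interval of -0.74 to 1.40. In NY against DZ it was -0.23 ± 0.50 (adjusted p = 0.984), from -1.31 to 0.85. In PLL against DZ it was -0.08 ± 0.49 (adjusted p = 0.898), from -1.14 to 0.99, and 0.11 without PLL replicate A. The intervals span up to 2.63-fold higher in aFM than in DZ, so the absence of a call does not show equal levels. The median of all 132 miRNAs stood at -0.14 in aFM against DZ, 0.02 in NY against DZ and 0.22 in PLL against DZ.

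Among the other groups, miR-181a-5p had a log2 fold change of -0.56 ± 0.48 (SE; adjusted p = 0.525) in NY against aFM, with a 95% interval of -1.61 to 0.49. In PLL against aFM it was -0.41 ± 0.47 (adjusted p = 0.568), from -1.44 to 0.62. In PLL against NY it was 0.15 ± 0.48 (adjusted p = 0.859), from -0.89 to 1.19. The median of all miRNAs tested stood at 0.18, 0.31 and 0.17 in these comparisons, listed in the same order. When predicted loci, which make up the rest of the table, entered the fit, miR-181a-5p stood at 1.15, 1.40 and 1.34 in PLL against DZ, aFM and NY and was not called (adjusted p = 0.167, 0.0932 and 0.131). The median annotated miRNA then stood at 1.73, 2.13 and 1.49, so that miR-181a-5p lay below it by 0.59, 0.73 and 0.15 on the log2 scale. With that scaling it also had the opposite sign in aFM against DZ (-0.26) and in NY against aFM (0.06).

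**Figure D3:**
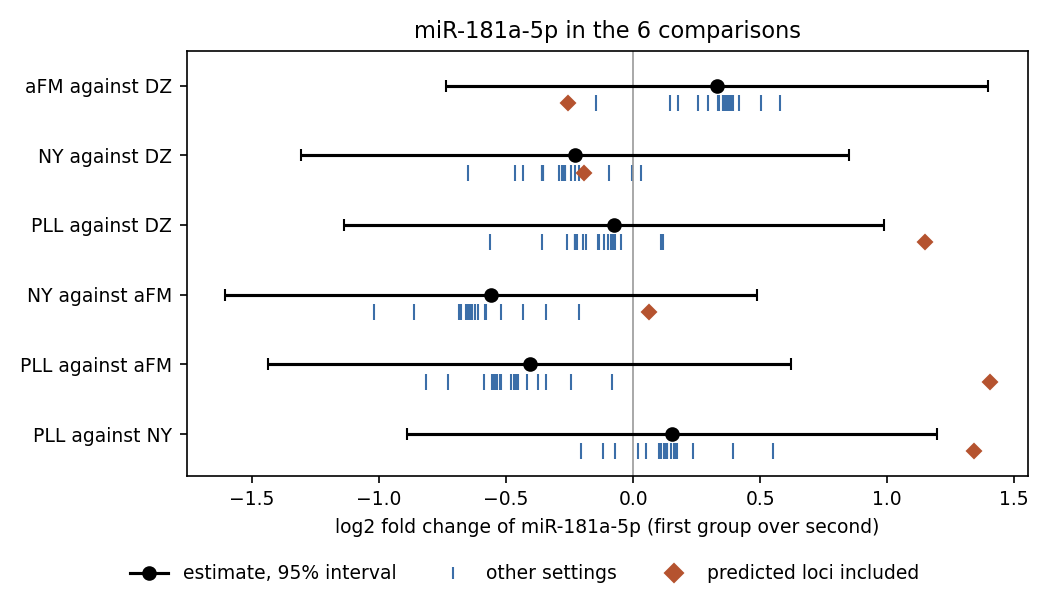
log2 fold change of miR-181a-5p (first group over second) in each of 6 comparisons, with its 95% interval (black). Blue ticks are the other settings tried and red diamonds the fit with predicted loci included. All 6 black intervals cross 0, and the diamonds of the PLL comparisons lie at 1.15, 1.40 and 1.34.

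For miR-181b-5p the pooled counts gave ratios whose intervals cover counting error only. The ratio was 2.16 (95% interval 0.883 to 6.00) for 21 counts in aFM against 7 in DZ, 1.87 (0.758 to 5.22) for 20 counts in NY against 7 in DZ, and 0.747 (0.257 to 2.31) for 10 counts in PLL against 7 in DZ. PLL had 10 counts against 21 in aFM, a ratio of 0.347 (0.146 to 0.769), and against 20 in NY, a ratio of 0.401 (0.167 to 0.897). These last intervals lie below 1, but the libraries of the groups overlapped. The edgeR fit without the filter on low counts allows for spread between libraries, estimated largely over all miRNAs together rather than for each. There, miR-181b-5p had log2 fold changes of -1.54 ± 1.05 (SE; adjusted p = 0.642) in PLL against aFM and -1.21 ± 1.04 (adjusted p = 0.682) in PLL against NY. In that edgeR fit over 501 miRNAs, 0 of 4 members were called, at 2.99% called in aFM against DZ, 1.4% in NY against DZ, 3.39% in PLL against DZ, 2.2% in NY against aFM, 2.99% in PLL against aFM and 3.19% in PLL against NY.

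Of the 6 passenger arms, 3 had counts. Those of the miR-181a hairpins are shown because, unlike the shared guide, they differ in sequence between the loci. The capitals mark where they differ, U5C and U16C, at positions counted from the 5′ end. How reads with a mismatch were assigned is not known for these arms either, so their counts, and the locus each is read as, are uncertain.
miR-181a-1-3p: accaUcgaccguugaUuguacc
miR-181a-2-3p: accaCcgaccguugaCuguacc
miR-181a-2-3p, from the chromosome 2 hairpin, had 23 counts in all and 17 of them in NY. It stood at 199, 186 and 166 CPM in NY replicates A, B and C, from 6, 6 and 5 counts. aFM replicates had 0, 0 and 90.7 CPM, PLL replicates 0, 25.1 and 0 CPM, and DZ replicates 61.0, 56.9 and 0 CPM. All NY libraries lay above all libraries of the other groups, by 5 or 6 counts against 0 to 3. Counting error alone allows up to 340 and 317 CPM in DZ replicates A and B, above every NY value. The share of all miRNAs that separate a group in this way is not given here. The pooled ratio was 5.55 (95% counting interval 1.32 to 49.5) for NY against DZ and 5.15 (1.49 to 27.4) for NY against aFM. For PLL against NY it was 0.0471 (0.00113 to 0.301).

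None of these differences of miR-181a-2-3p passed in the fit without the filter, which the counts of this arm did not pass. Its log2 fold changes there were 2.20 ± 1.67 (SE; adjusted p = 0.828) in NY against DZ, 2.17 ± 1.58 (adjusted p = 0.648) in NY against aFM and -3.85 ± 1.71 (edgeR unadjusted p = 0.0247, adjusted p = 0.302) in PLL against NY. In the same libraries the guide miR-181a-5p had its lowest mean in NY, but its groups overlapped and it was not called in any comparison.

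miR-181a-1-3p, from chromosome 1, had 9 counts, all in PLL replicate B (226 CPM), the PLL library with the most miR-181a-5p. The remaining 11 libraries had 0. miR-181c-3p had 2 counts in NY and 1 in PLL, against 1 of its guide in all libraries. The passenger arms of miR-181b and miR-181d had 0 counts. Over both miR-181a hairpins, passenger counts were 3 of 66 counts of both arms in aFM, or 4.55% (95% exact binomial interval 0.947 to 12.7), 17 of 65 in NY, or 26.2% (16.0 to 38.5), 10 of 76 in PLL, or 13.2% (6.49 to 22.9), and 2 of 39 in DZ, or 5.13% (0.627 to 17.3). These intervals pool the libraries of a group and cover counting error only. All 10 passenger counts of PLL lay in replicate B. By library the passenger share was 37.5%, 30.0% and 17.2% in NY replicates A, B and C, and at most 12.5% in the other groups, except 25.0% in PLL replicate B. The 95% exact binomial intervals of single libraries were wide. They ran from 15.2 to 64.6% in NY replicate A and 5.85 to 35.8% in NY replicate C. In aFM replicate A the interval was 0 to 12.3%, and in DZ replicate A 0.316 to 52.7%.

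**Figure D4:**
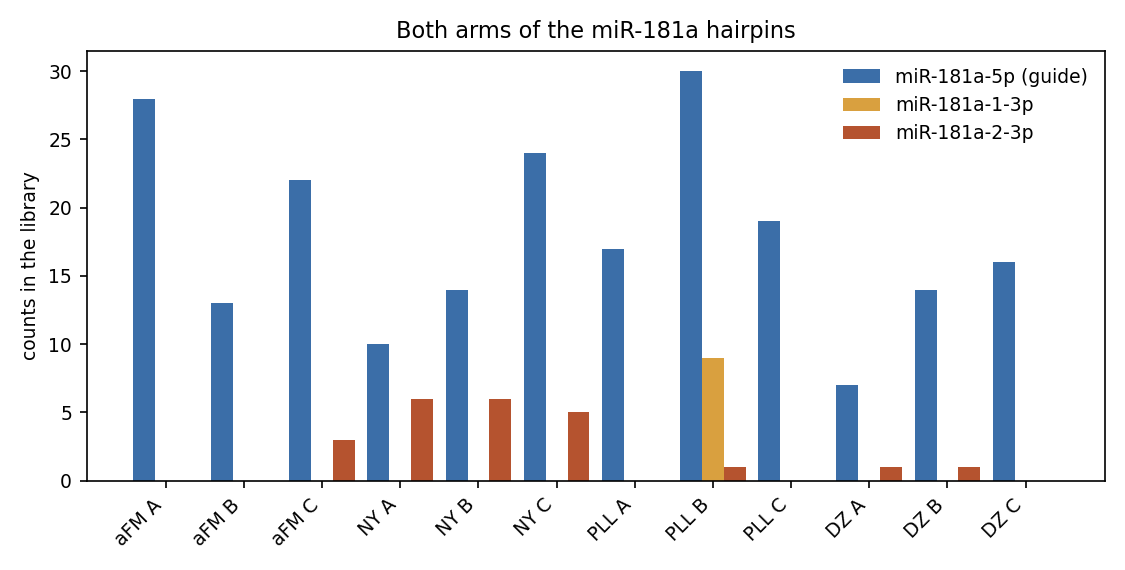
Counts of the guide miR-181a-5p (blue) and of the passenger arms miR-181a-1-3p (yellow) and miR-181a-2-3p (red) in each of 12 libraries. miR-181a-2-3p has 5 or 6 counts in each NY library and 0 to 3 elsewhere, and miR-181a-1-3p appears only in PLL replicate B, with 9 counts.

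The miRNAs whose profile over the 12 libraries was most like that of miR-181a-5p were let-7d-5p, miR-423-5p, let-7a-5p, let-7f-5p and miR-128-3p. Likeness was the mean absolute difference of log2 CPM after each miRNA was centred on its own mean. It was 0.36, 0.39, 0.39, 0.41 and 0.42 for these, where the median over 131 miRNAs was 0.66. A flat profile would have scored 0.38, so let-7d-5p alone of these lay nearer to miR-181a-5p than a constant level would.

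Markers of other cell types were read beside the family. The lymphoid and myeloid list, read because miR-181a is known from lymphocytes, had 2 of 7 members tested. Its summed level was 2235 to 3088 CPM in aFM, 3425 to 4508 in NY, 3940 to 5631 in PLL and 4878 to 6259 in DZ. Both tested members, miR-142a-5p, a miRNA of blood cells, and miR-146a-5p, a feedback inhibitor of the NF-κB pathway, were called lower in aFM than in DZ (list median -1.46 against -0.14 for all miRNAs), and neither in the other comparisons. These 2 calls were lost without any of 10 and of 4 libraries (edgeR adjusted p up to 0.156 and 0.0995). Each such fit also changed the filter and tested 143 to 147 miRNAs instead of 132. Without NY replicate A, a library of neither group, 9 miRNAs were called in aFM against DZ instead of 25. A call lost in this way, here and below, therefore need not rest on the library left out. miR-181a-5p was not called in aFM against DZ, and its mean was higher in aFM. In the erythroid list, miR-486a-5p and miR-486b-5p held identical counts in every library and were taken as 1 measurement, a choice made after seeing the data. The list so merged summed to 47925 to 81658 CPM in aFM, 63453 to 129591 in NY, 46852 to 67537 in PLL and 61346 to 137122 in DZ. Of its 2 measurements tested, miR-451a was not called in any comparison, and miR-486a-5p was called in aFM against DZ alone, where it was lower in aFM (log2 fold change -1.07, list median -0.69), a call lost without any of 9 libraries (edgeR adjusted p up to 0.181). Of 9 mesenchymal miRNAs, miR-145a-5p and miR-21a-5p were called lower in aFM than in DZ, miR-21a-5p higher in NY than in aFM, and miR-143-3p lower in PLL than in DZ, aFM and NY. The miR-145a-5p and miR-21a-5p calls were lost without any of 8 to 10 libraries (adjusted p up to 0.216). The miR-143-3p difference held whichever library was left out but had the opposite sign when predicted loci were included (0.24, 0.80 and 0.05 against DZ, aFM and NY). The list median was -0.07 in aFM against DZ and 0.47 in PLL against DZ.

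The endothelial list summed to 4623 to 5147 CPM in aFM, 365 to 865 in NY, 1698 to 2323 in PLL and 493 to 1423 in DZ. Its tested member miR-126a-3p was called higher in aFM than in DZ, lower in NY than in aFM and higher in PLL than in NY, the last lost without any of 7 libraries (adjusted p up to 0.189). Of the neural list, miR-9-5p was called in all 6 comparisons and miR-128-3p in none. The miR-9-5p call was lost without any of 3 libraries in NY against aFM and of 4 in PLL against aFM (adjusted p up to 0.102 and 0.126). The liver miRNA miR-122-5p was not called in any comparison and ran from 1890 to 38119 CPM within DZ. Of 8 osteoblast miRNAs 2 were tested, and miR-3960 was called higher in aFM than in DZ and lower in NY and PLL than in aFM. Of these, NY against aFM was lost without any of 6 libraries (adjusted p up to 0.149). The part of these other cell types in the levels of the miR-181 family was not tested.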

How the data were processed

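The deposited table held whole-number counts from the authors, 1 column for each library, and the values show that they were not normalized. Per the submitters' processing notes, FastQC, STAR, StringTie and DESeq2 were used with build mm39. The extract protocol describes mRNA libraries, whereas the design text names a small RNA kit. Which of these tools gave the miRNA counts is therefore not known. For the miRNA caller and its settings, nothing is stated in the labels or the file. Of 3509 rows, 1978 were annotated mouse miRNAs and 1531 predicted loci that name no gene. The loci held the rest of each library's counts and stayed out of library sizes and tests, except in a named alternative.

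Rows passing filterByExpr (minimum count 10, minimum total 15) numbered 132. All 12 libraries entered one edgeR 4.0.16 quasi-likelihood fit (R 4.3.3, limma 3.58.1) with TMM factors, a term per group and Benjamini-Hochberg adjustment. SE is the log2 fold change divided by the square root of F. The scripts were tested on simulated data. The members and marker lists were chosen with earlier results of these data known. The miRNAs named are the members, their passenger arms, called list members, the neighbours of each member by mean CPM and the 5 of most similar profile to miR-181a-5p. Alternatives were other scalings, no filter, DESeq2 1.42.0, merged identical rows, 2-group fits, a replicate block and leaving out each library. Sequences and coordinates are from RefSeq, gene overlaps from GENCODE M21, both on GRCm38. Same-letter libraries deviated together with correlations of 0.13 to 0.34 in NY and DZ, above 0.1 for every letter; no label states a pairing. In the other comparisons they ran from -0.21 to 0.23 and did not pair the libraries. No pair of replicates agreed within sampling noise.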

Additional observations from a re-analysis of the deposited data

How the results depend on the processing

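In all 146 alternative results, counted over the 6 comparisons and the joint test, 0 members were called by edgeR or DESeq2. They come from 21 alternatives per comparison, share fits and libraries, and are not independent. With the filter at most 1 member was tested, and with no filter all 4. Of 126 alternative log2 fold changes of miR-181a-5p, 115 kept their sign and 11 did not, all of them values that were not called. With predicted loci included they were -0.26 in aFM against DZ, 1.15 in PLL against DZ, 0.062 in NY against aFM and 1.40 in PLL against aFM. With the compared groups alone, PLL against NY was -0.070. Leaving out each library in turn gave -0.14 to 0.58 in aFM against DZ, -0.65 to 0.032 in NY against DZ, -0.56 to 0.12 in PLL against DZ and -0.21 to 0.55 in PLL against NY. The cause of these sign changes was not tested. With the replicate block, miR-181a-5p stood at 0.38 in aFM against DZ, -0.24 in NY against DZ and -0.073 in PLL against DZ, and the block changed no call of a member. The lowest adjusted p under any alternative was 0.0932. Counts of all miRNAs called moved more, from 5 to 28 in aFM against DZ (25 reported), 1 to 7 in NY against DZ (1), 1 to 58 in PLL against DZ (5), 1 to 29 in NY against aFM (5), 4 to 84 in PLL against aFM (12), 5 to 34 in PLL against NY (9) and 9 to 79 in the joint test (16). Library sizes that include predicted loci lowered the mean level of miR-181a-5p to 118 CPM in aFM, 118 in NY, 232 in PLL and 114 in DZ. Depth limits miR-181b-5p, miR-181c-5p and miR-181d-5p most, with at most 11 counts in a library.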
